A study of Mus musculus with 4 samples.

Results

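The water-control baseline of the neonatal mouse spleen was read from 2 of the 4 RNA pools of the study. They were the male and the female pool of water-control offspring. The mice were of ICR, an outbred stock, and were 5 days old. Their dams had received distilled water on gestational days 5 and 9, at 1 mL/kg each time. The other 2 pools, male and female, came from offspring of dams given carbon black nanoparticles (CB-NP) through the nose at 95 microg/kg on the same days, and they are used here only where stated. Whole spleens were homogenised, RNA was pooled within each group, and each pool was read on 1 single-colour array. The number of animals behind a pool is not given in the sources used here. A gene was counted as detected when its probe was flagged well above background on both control arrays, which held for 14170 of the 20284 genes with a named probe (69.9%). Each level below is the log2 signal of a gene's brightest detected probe minus the 75th percentile of all non-control spots of that array, so that 0 marks the 75th percentile. At or above it on both control arrays were 8148 genes (40.2%). Wherever a pair of levels is given, the male pool comes before the female pool.

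The mouse spleen keeps making blood cells after birth. Its red pulp holds erythroblasts, megakaryocytes and granulocyte precursors, together with macrophages that take up old red cells and recycle their iron. The white pulp, in which B and T cells settle in separate zones under the control of chemokines from stromal cells, is assembled over the weeks after birth, and germinal centres appear only after an immune response. Red cells of the embryo carry embryonic globins, which the definitive erythroid lineage replaces with adult alpha and beta globins.

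Adult and embryonic globin genes are described below, and promoters of both kinds are shown to let their letters be compared. Each line gives the 150 bases before the start of transcription, from RefSeq on build GRCm38.p6, written 5′ to 3′ on the strand of the gene. Capitals mark 5 motifs searched on both strands. They were ATATAA and its variant CATAAA, which are letters of a TATA box, the box CCAAT, the box CACCC and the motif GATAA. The letters ATTGG are a CCAAT box on the opposite strand.
Hba-a1, adult alpha globin, chr11:32283522-32283671, plus strand: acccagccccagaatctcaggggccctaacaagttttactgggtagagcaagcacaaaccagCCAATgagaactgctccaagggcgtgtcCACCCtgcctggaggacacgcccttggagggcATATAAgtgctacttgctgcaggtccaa
Hba-x, embryonic zeta globin, chr11:32276450-32276599, plus strand: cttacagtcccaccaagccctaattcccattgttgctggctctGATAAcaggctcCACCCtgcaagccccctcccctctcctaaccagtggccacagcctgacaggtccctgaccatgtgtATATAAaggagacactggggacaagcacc
Hbb-bt, adult beta globin, chr7:103813924-103814073, minus strand: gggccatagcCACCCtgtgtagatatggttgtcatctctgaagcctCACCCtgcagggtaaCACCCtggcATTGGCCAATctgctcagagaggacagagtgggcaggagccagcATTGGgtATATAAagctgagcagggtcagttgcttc
Hbb-bs, adult beta globin, chr7:103827929-103828078, minus strand: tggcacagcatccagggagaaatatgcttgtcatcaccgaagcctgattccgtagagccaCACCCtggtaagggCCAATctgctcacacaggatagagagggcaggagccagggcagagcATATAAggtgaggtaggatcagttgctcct
Hbb-y, embryonic epsilon globin, chr7:103853208-103853357, minus strand: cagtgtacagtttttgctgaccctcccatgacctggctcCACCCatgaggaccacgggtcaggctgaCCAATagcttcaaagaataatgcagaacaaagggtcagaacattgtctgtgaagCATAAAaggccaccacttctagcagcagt

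The adult genes Hba-a1, Hbb-bt and Hbb-bs and the embryonic Hba-x held ATATAA, and Hbb-y held CATAAA. In the same window of 27025 promoters, 1 per gene, 5.57% held ATATAA and 6.46% held CATAAA. The box CACCC was found in all 5 promoters shown and in 36.9% of the 27025. CCAAT was found in 4 of the 5, Hba-x being the exception, and in 25.3% of the 27025. Hbb-bt held 3 copies each of CACCC and CCAAT, and a pair of its CCAAT letters on opposite strands adjoined each other without overlapping any other motif. GATAA was found in Hba-x, as in 13.6% of the 27025. These matches describe letters and not bound sites. The promoters of Hba-a1 and Hba-a2 were identical over 297 of 297 compared bases.

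The arrays were alike in depth of reading. Well above background were 58.46% of the 59305 non-control spots in the male pool and 58.37% in the female pool, with no saturated spot. Of 308 negative control spots on each array, 3 and 1 were called and none of them on both. Across the 14170 detected genes the level of the pools correlated with r = 0.996, where genes are not independent replicates. Their absolute difference had a median of 0.12 and a 95th percentile of 0.54 on the log2 scale. The error that the scanner software propagated to a signal had a median of 10%. Repeated spots had a coefficient of variation of 4.52% on the male and 4.32% on the female control array. With 1 pool of each sex there is no replicate and no test was possible. Precision is limited by having 1 array per pool. A level within 0.54 of 0 is therefore not told apart here from the 75th percentile. The levels of detected genes ran from -5.13 to 10.45 with a median of 0.69. The brightness of a probe also depends on its own sequence, so each gene is placed on this scale and genes are not ranked against each other.

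**Figure D1:**
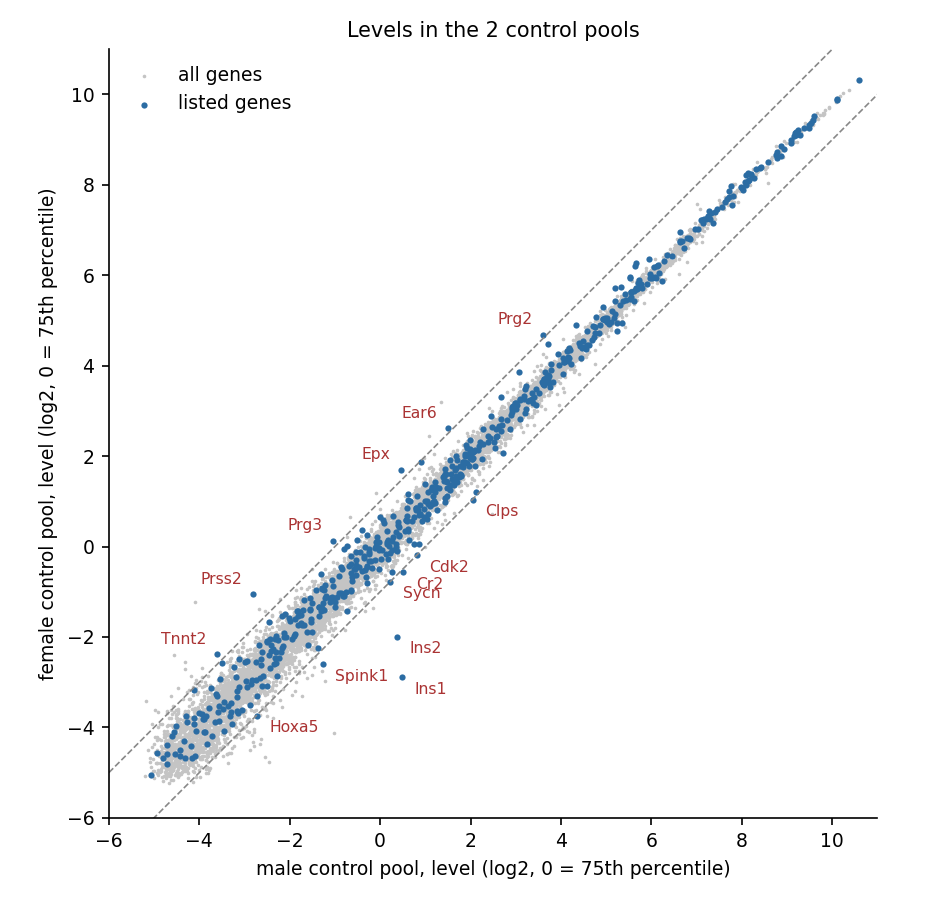
Level of each detected gene in the female control pool (vertical axis) against the male control pool (horizontal axis), both in log2 units with 0 at the 75th percentile of the array. Grey points are all detected genes, blue points are listed genes, dashed lines mark a 2-fold difference between the pools, and the named genes are listed members at least 2-fold apart, such as Ins1, Ins2 and Prg2.

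The tissue label was checked against marker genes. Tlx1, the homeobox factor needed for the spleen to form, lay at 2.01 and 1.98. Spic, the transcription factor that directs red pulp macrophages, lay at 3.73 and 3.77, and the B cell receptor subunit Cd79b at 5.16 and 5.06. The defining genes of spleen tissue were thus detected in both pools. The sex markers matched the labels. Xist, the RNA of the inactive X chromosome, lay at 1.22 in the female pool and was not well above background in the male pool. The Y-linked Ddx3y and Eif2s3y lay at 1.47 and 1.59 in the male pool, and neither was well above background in the female pool. Because RNA of whole spleens was measured, fewer cells of a type and less RNA per cell cannot be told apart in any level given here.

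Genes of red cell formation stood far up the scale. Every member with a probe on the lists of adult globins, haem synthesis enzymes, red cell membrane proteins and erythroid regulators was detected. The share at or above the 75th percentile was 5 of 5 adult globins, 12 of 12 haem synthesis genes, 18 of 19 membrane and carrier genes and 19 of 20 regulators, against 40.2% of all genes. Median levels of the detected members were 9.99, 5.69, 4.46 and 5.88, beside 0.69 over all detected genes.

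The adult globins form the oxygen-carrying chains of haemoglobin. Hba-a1 lay at 10.59 and 10.32, which made it the gene with the brightest probe in these pools, and Hba-a2 at 10.10 and 9.90. Both are close copies of the alpha globin gene, and whether their probes tell them apart was not tested. The beta globin probes of Hbb-bt read 10.11 and 9.87. Hbb-b2 lay at 9.58 and 9.43, and Hbb-bs at 8.59 and 8.50. These beta globin genes are close copies carried by alternative haplotypes of the locus, and a probe may read transcripts of more than its own gene. Of the 6 embryonic-type globins listed, 4 were detected in both pools. Hbb-y, whose promoter carries the CATAAA variant shown above, lay at -1.91 and -1.97, and Hbb-bh1 at -1.11 and -1.23. Hba-x was not well above background in either pool, and Hbb-bh2 only in the male pool. The theta globins Hbq1a, at 1.98 and 1.96, and Hbq1b, at 2.91 and 3.04, were the 2 of 6 listed embryonic-type globins at or above the 75th percentile. In both pools the adult globin probes were at or above the 75th percentile. Of the 6 embryonic-type globins, 4 were below it or not detected. The embryonic-type shares, 66.7% detected and 33.3% at or above the 75th percentile, lay near the 69.9% and 40.2% of all genes.

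Haem is built by a chain of enzymes that begins and ends in mitochondria. Alas2, the erythroid form of the enzyme that starts the chain, lay at 8.03 and 7.89. Urod, a cytosolic enzyme of the middle of the chain, lay at 8.21 and 8.22, and Fech, which inserts the iron, at 8.08 and 8.07. The mitochondrial iron importer Slc25a37 (mitoferrin) lay at 8.26 and 8.15, although another detected probe of the same gene was at 3.16 on average. Alad lay at 7.25 and 7.31. The housekeeping isoform Alas1 was detected too, at 4.18 and 4.39, although its other detected probe averaged -1.18. By its brightest probe each member of this list exceeded the 75th percentile in both pools.

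Among red cell membrane proteins, Slc4a1, the anion exchanger called band 3, lay at 8.77 and 8.60. The skeleton protein Epb41 lay at 7.41 and 7.41, yet its other detected probes averaged 0.55 and -0.94. Aqp1, the water channel of red cells and of endothelium, lay at 7.28 and 7.42, and the Rh blood group protein Rhd at 6.97 and 7.02. The Rh-associated glycoprotein Rhag lay at 3.19 and 3.33. Sptb, the beta chain of spectrin, was the exception on the list at -2.09 and -2.0.

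The regulators of erythropoiesis were detected together. Gata1, the zinc finger factor that drives erythroid and megakaryocytic genes, lay at 6.28 and 6.32. Its partner Zfpm1 (FOG-1) lay at 7.14 and 7.16, and a further probe of that gene averaged 7.11. Klf1, the factor that binds CACCC letters in adult beta globin, lay at 5.72 and 5.91. Tal1 and Lmo2, members of the same DNA-binding complex, lay at 6.0 and 5.97 and at 5.96 and 5.94. The erythropoietin receptor Epor lay at 5.96 and 6.03. The transferrin receptor Tfrc, by which erythroblasts take up iron, lay at 4.92 and 5.03. Bcl11a, known for silencing embryonic and fetal globin genes, lay at 3.71 and 3.71. Erfe, the erythroblast hormone that lowers hepcidin, lay nearer the 75th percentile at 0.29 and 0.67, and Trim58, which acts as erythroblasts lose their nuclei, lay below it at -0.54 and -0.64.

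**Figure D2:**
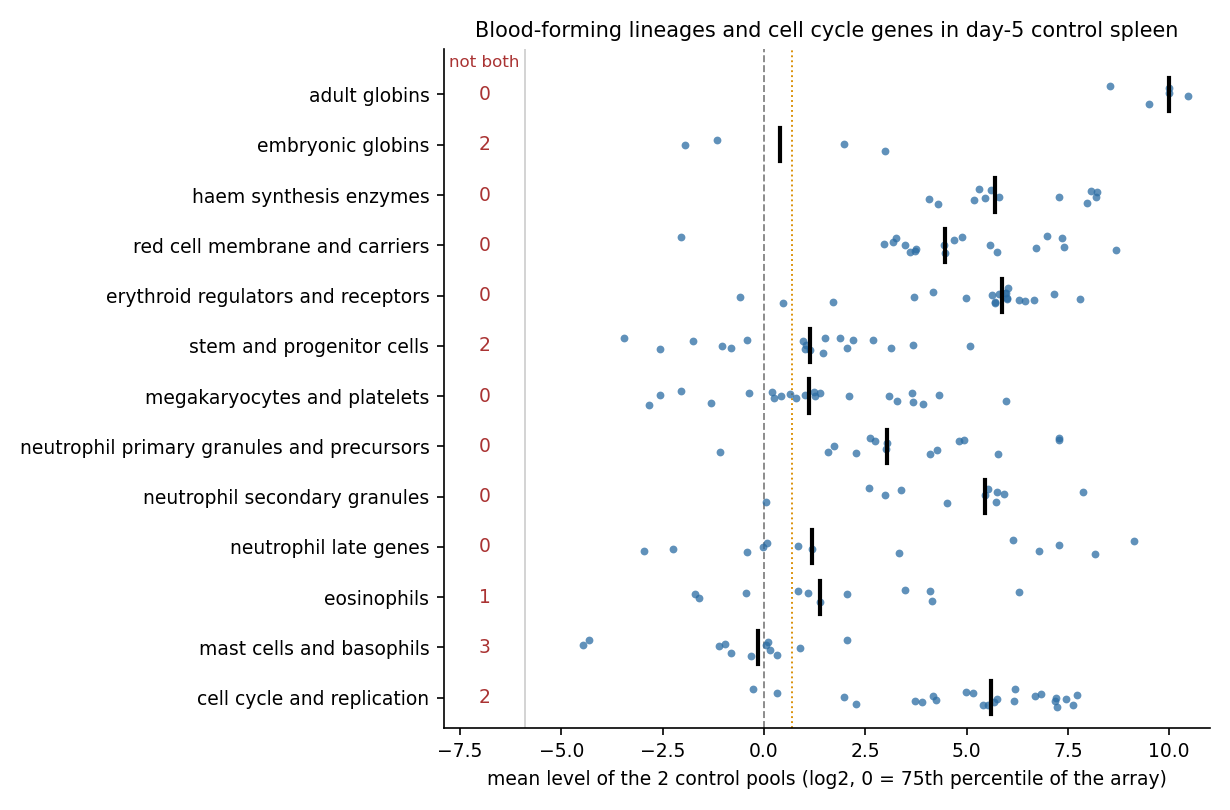
Mean level of both control pools (horizontal axis, log2 with 0 at the 75th percentile) for members of 13 gene lists of blood formation and the cell cycle. Each point is a detected gene, black bars are the median over detected members, the orange dotted line is the median of all detected genes, and red numbers count the members not well above background on both arrays. The adult globin bar sits at 9.99 and the embryonic globin bar at 0.40.

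Cell division genes were prominent. Of 26 genes of the cell cycle and DNA replication, 24 were detected and 22 were at or above the 75th percentile, with a median of 5.61 over those detected. Mcm6, a subunit of the replicative helicase, lay at 7.72 and 7.74. Mki67, the proliferation antigen Ki-67, lay at 7.64 and 7.61, and its other probe averaged 7.37. Birc5 (survivin) lay at 7.46 and 7.47, the ribonucleotide reductase subunit Rrm2 at 7.22 and 7.24, and the clamp protein Pcna at 7.11 and 7.23. Cyclin D3, encoded by Ccnd3 and needed for erythroblast divisions, lay at 7.17 and 7.24. Mitotic kinase genes differed in whether a probe detected them. Plk1 lay at 5.36 and 5.43 and Aurka at 4.14 and 4.33, while Aurkb and the cyclin gene Ccne2 were not well above background in either pool. Cdk2 had a 2-fold gap between the pools, at 0.82 and -0.18.

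Genes of stem and progenitor cells were detected for 19 of 21 members, 13 of them at or above the 75th percentile, with a median of 1.14. Myb, the factor that keeps progenitors dividing, lay at 3.62 and 3.72, and the sialomucin Cd34 at 3.22 and 3.04, although another detected probe of Cd34 averaged -2.35. Kit, the receptor for stem cell factor, lay at 1.93 and 2.18. Genes tied more closely to stem cells themselves lay below the 75th percentile or were not detected. Slamf1 (CD150) lay at -1.62 and -1.90, Hlf at -2.44 and -2.69 and Hoxa9 at -3.62 and -3.30. Mecom and Hoxa10 were not well above background in either pool.

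All 22 genes of megakaryocytes and platelets were detected, 17 of them at or above the 75th percentile, and their median was 1.11. Pf4, the platelet factor stored in alpha granules, lay at 6.01 and 5.93, and the related chemokine Ppbp at 4.45 and 4.18. Itgb3, the beta chain of the fibrinogen receptor, lay at 4.04 and 3.83 with another detected probe averaging -2.22, and its partner Itga2b at 1.14 and 1.31. Of the receptor for von Willebrand factor, Gp9 lay at 3.77 and 3.52, Gp1ba at 1.47 and 1.30, Gp1bb at 0.29 and 0.21 and Gp5 at 0.71 and 0.57. All 4 of its chains were therefore detected by at least 1 probe, and other probes of Gp1bb averaged -3.91 or were not well above background. The adenosine diphosphate receptor P2ry12 of mature platelets lay at -2.63 and -2.49, and Selp, the adhesion protein moved to the surface of activated platelets, at -2.61 and -3.08.

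Developing neutrophils make their granule proteins in sequence, and the genes are described here in that order. The lists were read at 1 age, and their levels are not compared with each other. Of genes of primary granules and early precursors, 15 of 15 were detected, 14 were at or above the 75th percentile and the median was 3.02. Mpo, the myeloperoxidase of primary granules, lay at 7.24 and 7.30. The serine proteases Ctsg and Elane lay at 5.70 and 5.84 and at 4.74 and 4.86. Cebpe, the factor that starts the secondary granule programme, lay at 3.93 and 4.26, while the earlier factor Cebpa lay at -1.07 and -1.12. The receptor for granulocyte colony-stimulating factor, Csf3r, lay at 7.29 and 7.25.

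Secondary granule genes had 11 of 11 members detected, 10 at or above the 75th percentile and a median of 5.45. Camp, the cathelicidin precursor, lay at 7.76 and 7.96. The iron-binding protein lactoferrin, Ltf, lay at 5.52 and 5.95, and the siderophore-binding Lcn2 at 5.53 and 5.96. Ngp lay at 5.19 and 5.72. Of late neutrophil genes, 13 of 13 were detected, 8 were at or above the 75th percentile and the median was 1.19. The calcium-binding pair S100a9 and S100a8 lay at 9.16 and 9.08 and at 8.10 and 8.22, and the cysteine protease inhibitor Stfa3 at 6.62 and 6.95. Genes that mark release from the marrow and activation were detected as well. Mmp8 lay at 0.98 and 1.39, Mmp9 at -0.41 and 0.37, the chemokine receptor Cxcr2 at -0.07 and 0.22, and the decoy receptor Il1r2 at -2.98 and -2.97.

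Eosinophil genes were detected for 11 of 12 members, 8 of them at or above the 75th percentile, and Alox15 was well above background in the female pool only. Gata1, which this list shares with erythroid cells, had the brightest probe on it. Of the granule proteins, Prg2 (major basic protein) lay at 3.61 and 4.69, Epx (eosinophil peroxidase) at 0.47 and 1.70 and Prg3 at -1.04 and 0.13. The eosinophil ribonuclease Ear6 lay at 1.50 and 2.61. These 4 of 11 detected members were at least 2-fold apart between the pools, the female pool being higher for each, while 111 of 14170 detected genes (0.783%) had such a gap in either direction. Sex, animals and array cannot be told apart in this gap, and the means of these genes are accordingly less certain than those of the erythroid lists, in which 0 members were that far apart.

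Mast cell and basophil genes lay low, with 12 of 15 detected, 4 at or above the 75th percentile and a median of -0.14. The brightest probe was that of Kit, shared with progenitors. Mcpt4, a chymase of connective tissue mast cells, lay at 1.07 and 0.71, and Mcpt8, a basophil protease, at 0.20 and 0.01. The carboxypeptidase Cpa3 lay at -0.18 and -0.47. For the receptor that binds immunoglobulin E, the beta chain Ms4a2 was not well above background in either pool, and the alpha chain Fcer1a only in the female pool.

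Macrophages of the red pulp engulf old red cells, break down haem and return the iron. Of 24 genes on this list, 21 were detected and 17 were at or above the 75th percentile, with a median of 3.22. The ferritin chains Ftl1 and Fth1, which store iron in many cell types, lay at 9.09 and 8.93 and at 8.94 and 8.79. Csf1r, the receptor on which macrophages depend, lay at 5.52 and 5.47, but its other detected probes averaged 1.08 and -0.05. The adhesion protein Vcam1 lay at 5.01 and 4.96. The iron exporter ferroportin, Slc40a1, lay at 4.84 and 4.73, and the haem-degrading enzyme Hmox1 at 4.43 and 4.44. The complement chains C1qa, C1qb and C1qc lay at 3.18 and 3.25, at 2.47 and 2.66 and at 3.37 and 3.27. Adgre1, the F4/80 antigen, lay at 2.05 and 1.96. By their brightest probes these genes, and Spic, were thus above the 75th percentile in both pools. Other macrophage markers were not. Timd4 lay at -0.31 and -0.67, Cd163, the haemoglobin scavenger receptor, was well above background only in the female pool, and Vsig4 and Clec4f, markers of liver macrophages, were so in neither.

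The marginal zone, the border of the white pulp, has macrophages of its own. Of their 8 genes 7 were detected, with a median of -2.02, and Marco was the member at or above the 75th percentile, at 5.35 and 4.94. This scavenger receptor is carried by marginal zone macrophages in the adult and can be induced in others. Cd209b (SIGN-R1), which binds bacterial polysaccharides, lay at -3.27 and -3.92, and Siglec1, the sialoadhesin of metallophilic macrophages, at -2.12 and -1.91, with another probe not well above background. Scarf1 was not well above background in either pool. Apart from Marco, the detected genes of these macrophages therefore lay below the 75th percentile.

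Monocyte genes were detected for 14 of 14 members, 9 at or above the 75th percentile, with a median of 1.91. Ly6c1, an antigen that endothelium also carries, lay at 4.93 and 5.30, and Irf8, a factor of monocytes and dendritic cells, at 3.72 and 3.79. The fractalkine receptor Cx3cr1 lay at 2.17 and 2.14 with another detected probe averaging -1.0, and the chemokine receptor Ccr2 at -0.62 and -0.67. Of 18 dendritic cell genes, 17 were detected, with a median of -0.16. At or above the 75th percentile were 8 (44.4%, near the 40.2% of all genes). Siglech, a receptor of plasmacytoid dendritic cells, lay at 7.57 and 7.51, but its other detected probe averaged -1.51, so its level depends on the probe chosen. Itgax (CD11c) lay at -0.25 and -0.06 and the conventional dendritic cell factor Zbtb46 at -0.90 and -0.65. For the cross-presenting subset, Batf3 lay at 0.36 and 0.05, Clec9a at -3.05 and -3.62, and Xcr1 was not well above background in either pool.

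The machinery of antigen presentation was detected for 20 of 21 genes, 16 of them at or above the 75th percentile, and the median was 2.24. B2m, the light chain of class I molecules, lay at 5.42 and 5.60, and the class I heavy chain H2-K1 at 4.57 and 4.77. Of class II genes, H2-Ab1 lay at 5.06 and 4.92, H2-Eb1 at 5.24 and 4.76, and the invariant chain Cd74 at 5.10 and 4.96. H2-Aa lay at 1.16 and 0.99 and H2-DMb2 at -1.87 and -1.60. Ciita, the regulator that switches class II genes on, was well above background in the male pool only. Probes for classical class I and class II genes were drawn on the reference haplotype, and outbred mice can differ there in sequence. The costimulatory genes Cd80 and Cd86 lay at 1.59 and 1.49 and at 0.89 and 0.71, and Cd40 at -0.64 and -0.58. Another detected probe of Cd80 averaged -3.78.

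**Figure D3:**
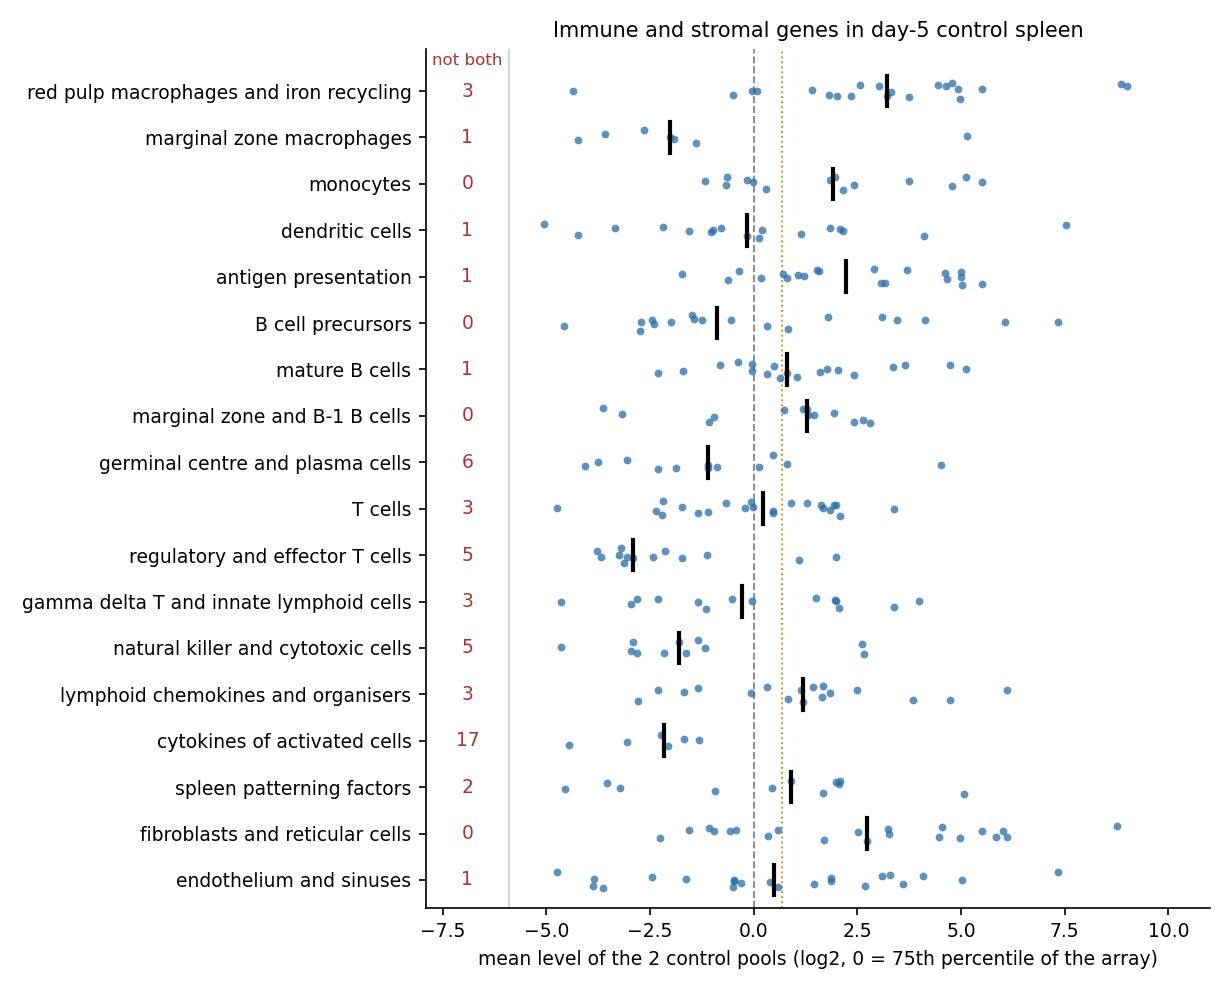
Mean level of both control pools (horizontal axis, log2 with 0 at the 75th percentile) for members of 18 immune and stromal gene lists, drawn as in the plot of blood lineages. Cytokines of activated cells had 17 members not well above background on both arrays, the largest such number plotted here, and their detected members all lay below 0.

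B cell genes were detected from the precursor stage onwards. Of 18 precursor genes 18 were detected, and the median was -0.89. At or above the 75th percentile were 8 (44.4%, near the 40.2% of all genes). Cd24a, the heat-stable antigen that erythroblasts carry as well, lay at 7.32 and 7.38, and Cd93, present on immature B cells and on endothelium, at 4.15 and 4.11. The surrogate light chain pairs with the heavy chain before light chains are made. Of its genes, Vpreb1 lay at 0.84 and 0.82 and Igll1 at -1.95 and -2.05. Vpreb3, which is not one of its chains, lay at 3.02 and 3.18. The recombinase genes Rag1 and Rag2 lay at -2.94 and -2.52 and at -4.54 and -4.58. Dntt, the polymerase that adds bases to antigen receptor joints, lay at -1.56 and -1.41. Rag1 and Rag2 each had another probe that was not well above background, so their detection depends on the probe chosen. The synaptic regulator Cplx2, on this list as a gene of B cell precursors, lay at 6.24 and 5.87, with further probes averaging from 5.09 to 1.44.

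Of mature B cell genes, 19 of 20 were detected, 13 were at or above the 75th percentile and the median was 0.81. Cd79b lay at the level given above, while its receptor partner Cd79a lay at -0.28 and -0.44. Ltb, the lymphotoxin chain by which B cells instruct stroma, lay at 4.76 and 4.73. The surface antigen Ms4a1 (CD20) lay at 3.66 and 3.65. Some genes that mark the later, follicular or marginal zone B cell lay close to 0 by their brightest probe. Fcer2a (CD23) lay at -0.03 and -0.03, and Cxcr5, the receptor that leads B cells to follicles, at 0.42 and 0.24. The complement receptor Cr2 lay at 0.51 and -0.56, a gap of more than 2-fold, and its other detected probe averaged -2.31. The separate list of marginal zone and B-1 B cells, given next, had 9 of 13 members at or above the 75th percentile. No probe was matched to Ighm or Ighd, so the heavy chains were not read.

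Of 13 genes of marginal zone and B-1 B cells, 13 were detected, 9 were at or above the 75th percentile and the median was 1.30. Fcrl5 lay at 2.82 and 2.81, but its other detected probe averaged -2.62. The tetraspanin Cd9 lay at 2.63 and 2.67, the chaperone Mzb1 at 2.52 and 2.31 and Cd5 at 1.31 and 1.29. S1pr3, a receptor carried by marginal zone B cells, lay at -0.83 and -1.10. Germinal centre and plasma cell genes were detected for 12 of 18 members (66.7%, near the 69.9% of all genes). At or above the 75th percentile were 4 (22.2%, against 40.2% of all genes). Rgs13, a gene of germinal centre B cells, was not well above background in either pool, nor were Il21 and Cd40lg, by which T cells help B cells. Of plasma cell genes, Xbp1, used by many secretory cells, lay at 4.50 and 4.55. The joining chain gene Jchain lay at 0.86 and 0.06, and Prdm1 (Blimp-1) at -3.19 and -2.90. Tnfrsf17, the survival receptor of plasma cells, was well above background in the female pool only.

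T cell genes were detected for 22 of 25 members, with a median of 0.22. At or above the 75th percentile were 11 (44.0%, near the 40.2% of all genes). Lck, the kinase bound to the coreceptors, lay at 3.37 and 3.39. The receptor complex gene Cd3d lay at 1.99 and 2.17, Cd3e at 1.78 and 1.55 and Cd3g at -0.12 and -0.02, and the signalling chain Cd247 at -4.80 and -4.68. Cd4 lay at 1.68 and 1.55, while Cd8a lay at -2.34 and -2.05 and Cd8b1 at -0.86 and -0.45. The other detected probe of Cd4 averaged -4.18 and that of Cd8a -4.02. Ptcra, which marks developing T cells of the thymus, and Themis were not well above background in either pool.

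Genes of regulatory and effector T cells lay low. Of 18 members 13 were detected, 2 were at or above the 75th percentile and the median was -2.90. Ccl5, a chemokine stored by memory T cells and natural killer cells, lay at 1.98 and 1.97, and Tnfrsf4 (OX40) at 1.21 and 0.97. Foxp3, the factor of regulatory T cells, lay at -3.46 and -4.07, and Il2ra at -2.67 and -2.17. Tbx21 lay at -2.30 and -1.97. Ctla4, Il2, Il10, Il17a and Il22 were not well above background in either pool.

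Of 16 genes of natural killer and cytotoxic cells, 11 were detected (68.8%, near the 69.9% of all genes), with a median of -1.79. At or above the 75th percentile were 2 (12.5%, against 40.2% of all genes). Those 2 were Nkg7, at 2.67 and 2.56, and Gzma (granzyme A), at 2.45 and 2.90. Perforin, Prf1, lay at -1.21 and -1.14 and Gzmb at -3.23 and -2.66. The activating receptor Ncr1 (NKp46) lay at -3.13 and -2.48. Lectin receptors of killer cells went both ways. Klra4, Klra8, Klre1, Klri2 and Klrk1 were not well above background in either pool. Klrd1, Klrg1 and Klrb1c were detected in both. Klrb1c lay at -2.26 and -2.06, and its other probe was not well above background on both arrays. Genes of gamma delta T cells and innate lymphoid cells were detected for 14 of 17 members, with a median of -0.29. Il1rl1, the interleukin 33 receptor, lay at 2.03 and 1.93, and its other detected probes averaged -1.60 and -2.76. Sox13 lay at 1.63 and 1.37, whereas Il23r, Areg and Tnfsf11 were not well above background in either pool.

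Chemokines that arrange the white pulp were detected. Of 20 genes of lymphoid organisation 17 were detected, 12 were at or above the 75th percentile and the median was 1.19. Cxcl12, which retains progenitors and plasma cells, lay at 6.05 and 6.19. Ccl19, which draws T cells and dendritic cells to the T zone, lay at 3.78 and 3.89, and its further probes averaged 2.88 and 2.12. Its receptor Ccr7 lay at 1.83 and 1.88. Cxcl13, the chemokine of B cell follicles, lay at 2.56 and 2.43. The receptor for lymphotoxin, Ltbr, lay at 1.42 and 1.45, and Madcam1, an adhesion protein of the marginal sinus, at 1.77 and 1.60, with another detected probe averaging -2.67. Ccl19, Cxcl13, Ltb and Ltbr were thus above the 75th percentile, while Cxcr5 stood within 0.54 of it and the lymphotoxin gene Lta lay at -1.35 and -1.35. Il7 was not well above background in either pool, and no probe was matched to Ccl21a or Ccl21b.

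Receptors for microbial products were detected, and most cytokines of activated cells were not by the flag used here. Of 22 Toll-like receptors and adaptors 18 were detected (81.8%, against 69.9% of all genes). At or above the 75th percentile were 9 (40.9%, near the 40.2% of all genes). Unc93b1, which carries the endosomal receptors, lay at 3.62 and 3.58, the adaptor Myd88 at 2.11 and 2.14 and the receptor for bacterial DNA, Tlr9, at 1.96 and 1.78. Tlr4, the receptor for endotoxin, lay at -1.34 and -1.53 and Tlr2 at 0.15 and 0.05. Tlr3 and Tlr5 were not well above background in either pool. Of 23 cytokine genes 6 were detected (26.1%, against 69.9% of all genes) and 0 were at or above the 75th percentile. Well above background in neither pool were 16, among them Il1a, Il12a, Il13, Ifnb1, Csf2, Csf3, Cxcl1 and Cxcl2. The cytokine count depends on the flag. With the flag for a positive and significant signal most of the 23 were detected, as given in the closing section. Detected were Il1b at -2.43 and -2.05, Tnf at -1.82 and -1.53, Ccl2 at -2.47 and -1.67, Il33 at -1.25 and -1.40, Ifng at -3.49 and -2.59 and Il4 at -4.42 and -4.50. Il6 was well above background in the male pool only.

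Factors known to pattern the spleen in the embryo were detected for 11 of 13 genes, 7 of them at or above the 75th percentile, with a median of 0.89. Nr5a1 (steroidogenic factor 1), which acts in the spleen vessels, lay at 1.99 and 2.11. Wt1, which is also a gene of the mesothelium that covers the organ, lay at 1.90 and 2.25. Tcf21 lay at 0.63 and 1.16, Nkx2-5 at 0.55 and 0.35, and Nkx3-2 at -3.57 and -3.52. Foxl1 was not well above background in either pool. Of the Hox genes, which set position along the body axis, 17 of 39 with a probe were detected and 0 were at or above the 75th percentile. Hoxa7 lay at -0.98 and -0.99 and Hoxb4 at -1.13 and -0.92, and both were named after their values were seen. Hoxa5 lay at -2.72 and -3.74, a gap of more than 2-fold.

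Fibroblasts and reticular cells build the frame on which blood cells of the spleen rest. Of 21 genes of these cells 21 were detected and 15 were at or above the 75th percentile, with a median of 2.74. Sparc, a matrix protein of growing tissue, lay at 8.87 and 8.64, although its other probe averaged 1.45. The collagen chain Col1a2 lay at 6.17 and 6.05, Col3a1 at 4.62 and 4.46 and Col1a1 at 4.55 and 4.37. Fibronectin, Fn1, lay at 6.09 and 5.96. The smooth muscle genes Tagln and Acta2 lay at 5.90 and 5.80 and at 5.61 and 5.43. Pdpn (podoplanin), a marker of T zone reticular cells, lay at -2.20 and -2.33, and its other probe was not well above background.

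Endothelial genes were detected for 22 of 23 members, 12 of them at or above the 75th percentile, with a median of 0.49. Aqp1, with its level given above, is shared with red cells. Stab2, a scavenger receptor of sinusoidal endothelium, lay at 4.97 and 5.06, and Plvap, which forms the diaphragms of small vessels, at 4.06 and 4.09. Cldn5 lay at 3.58 and 3.63 and the growth factor receptor Kdr at 3.44 and 3.14. Markers of lymphatic endothelium stood at the lower end, with Lyve1 at -3.90 and -3.82, Flt4 at -4.11 and -3.17 and Prox1 at -4.93 and -4.57. Gata4, a factor of liver sinusoids, was not well above background in either pool.

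Genes of fetal growth showed a mixed picture. Of 23 members 22 were detected, with a median of 0.33. At or above the 75th percentile were 11 (47.8%, against 40.2% of all genes). Igf2, the growth factor of fetal tissues, lay at -3.31 and -3.47. Hmga1, a chromatin protein of dividing cells, lay at 7.03 and 7.03, and its relative Hmga2, tied to fetal stem cells, at -1.81 and -1.73. The imprinted genes Mest, Dlk1 and Cdkn1c lay at 2.06 and 2.09, at 1.47 and 1.44 and at 1.06 and 0.94. Lin28b, which maintains the fetal type of blood formation, lay at 1.66 and 1.50 by its brightest probe, whereas its other detected probe averaged -3.44. Lin28a lay at -0.25 and -0.11 and Igf2bp3 at -0.53 and -0.12. For 8 of these genes the detected probes lay at least 3 apart on the log2 scale. The lowest of them averaged -3.40 for Hmga1, -1.92 for Mest and -1.97 for Dlk1, and no probe was matched to H19.

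Genes of neighbouring organs were examined because tissue next to the spleen can be taken with it. Of 27 pancreas acinar genes, the longest of these lists, 22 were well above background on both control arrays and 8 (29.6%) were at or above the 75th percentile, against 40.2% of all genes, with a median of -0.27. The digestive enzyme genes Ctrb1 and Cela3a lay at 2.72 and 2.06 and at 2.12 and 1.20, the amylase Amy2a5 at 1.65 and 1.68, and the lipase cofactor Clps at 2.05 and 1.04. Other detected probes of Cela3a, Amy2a5 and Clps averaged -1.36, -2.14 and -2.30, on the other side of the 75th percentile. Pnlip, Pnliprp2, Cpb1, Cuzd1 and Ptf1a, the factor that defines acinar cells, were not well above background in either pool. On both CB-NP arrays 11 of the 27 acinar genes were detected, counted whether or not the control pools detected them. Over all genes, 13941 of the 14170 detected in the control pools (98.4%) were also detected on both CB-NP arrays. These counts have unlike bases, and no difference between them was tested. The share of all genes detected on both CB-NP arrays, whatever the control pools showed, was not counted. The 11 of 27 therefore has no all-gene share beside it. Of non-control spots, 59.0% were well above background on the male and 57.3% on the female CB-NP array.

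Hormone genes of the pancreatic islets differed between the control pools. Ins1 and Ins2, which encode insulin, lay at 0.48 and 0.37 in the male pool and at -2.89 and -1.99 in the female pool. Gcg, Sst and Iapp were well above background in the male pool only. Of 16 islet genes 6 were detected on both arrays. Rbpjl, a transcription factor of the pancreas outside the lists and named after its values were seen, lay at -1.03 and -4.12. Acinar genes at least 2-fold apart ran both ways, since Spink1 lay at -1.27 and -2.60, Sycn at 0.23 and -0.78 and Clps at the levels given above, while Prss2 lay at -2.81 and -1.05. The other detected probe of Clps ran the opposite way, at -2.97 and -1.64. The part of pancreatic RNA in any other level was not tested.

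Other neighbouring tissues gave few bright probes. Liver genes were detected for 8 of 19 members, and Alb, Apoa1, Apob and Ttr were not well above background in either pool. Its 2 members at or above the 75th percentile were Serpina1a, at 1.20 and 1.00, and Apoa2, at 0.97 and 0.84. The other detected probe of Serpina1a averaged -1.61, and the other probe of Apoa2 was not well above background on both arrays. Afp, the alpha-fetoprotein of fetal liver, lay at -3.87 and -4.11. Stomach and intestine epithelium had 5 of 20 members detected and 0 at or above the 75th percentile, and Epcam, Cdx2 and Gkn1 were not well above background in either pool. Kidney and adrenal genes were detected for 9 of 15 members, with a median of -3.44, and adipose genes for 5 of 12, with Adipoq, Lep and Ucp1 among those not detected and Lpl, at 1.46 and 1.61, and Pparg, at 0.59 and 0.57, past the 75th percentile. The other detected probe of Lpl averaged -1.34. Mesothelium, which covers the spleen, had 9 of 10 members detected, and Msln (mesothelin) lay at 2.55 and 2.17. Muscle genes were detected for 12 of 16 members with a median of -3.12. Neuron, retina and sperm genes, the lists least likely to apply, were detected for 8 of 18, with Snap25 at 4.22 and 4.04 and Mbp at 3.62 and 3.70, while other probes of Mbp averaged -0.46 and -3.69. Many members were therefore detected also for tissues that were not sampled. The muscle list, with 12 of 16, exceeded the 69.9% detected over all genes. The liver, stomach and intestine, kidney and adrenal, adipose and neuron lists lay below that share. Detection of list members does not by itself show that a tissue was sampled.

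**Figure D4:**
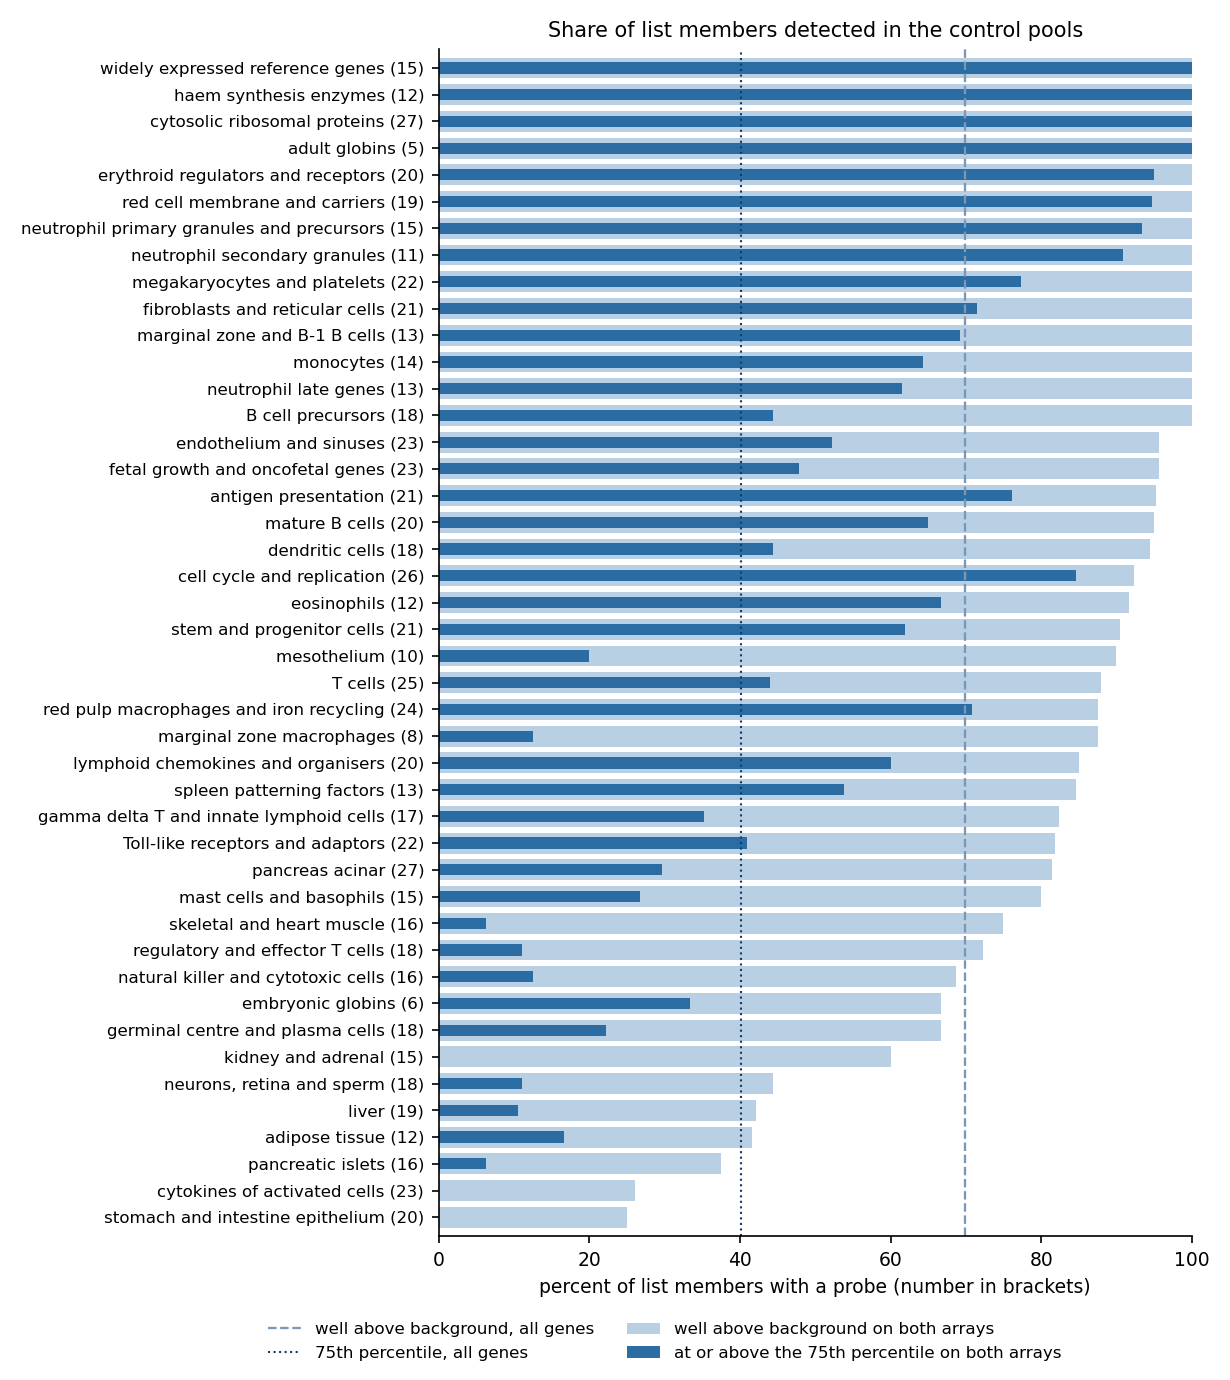
Percent of list members with a probe that were well above background on both control arrays (light bars) and at or above the 75th percentile on both (dark bars), for 44 lists, each with the number of members with a probe in brackets. Dashed and dotted lines mark the shares over all genes, 69.9% and 40.2%. Adult globins, haem synthesis enzymes and ribosomal proteins stand near the top, and cytokines of activated cells and stomach and intestine epithelium at the bottom. The embryonic globins, with 6 members, stand near both lines at 66.7% and 33.3%.

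Whole gene families placed these counts in context. Ribosomal protein genes were detected for 95 of 97, NADH dehydrogenase subunits for 46 of 46 and proteasome subunits for 39 of 40. At the other end, 75 of 1070 olfactory receptor genes (7.01%), 16 of 252 vomeronasal receptor genes and 2 of 43 beta-defensin genes were detected. Of 32 interleukin genes 11 were detected, and Il16 at 1.03 and 1.04 and Il18 at 1.91 and 1.68 were the 2 at or above the 75th percentile. Long non-coding RNA genes were detected for 219 of 497 (44.1%), and protein-coding genes for 13851 of 19594 (70.7%).

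The genes with the brightest probes fell into a few kinds. Among the 30 with the highest mean level were 4 globin genes, Hba-a1, Hba-a2, Hbb-bt and Hbb-b2. Histone H2A genes formed another kind, with H2ac12 at 10.36 and 10.10 and H2ac10 at 10.18 and 9.96, and these are near-identical copies that their probes may not separate. Ribosomal protein genes such as Rpl37a, at 9.65 and 9.49, and Rpl35, at 9.60 and 9.49, were a further kind. The remaining names were less easily placed, because probes of the same gene disagreed. Slc10a1, the bile acid transporter of liver cells, lay at 10.11 and 9.93 by its brightest probe, and its other probe was not well above background. Elk1, a transcription factor, lay at 9.73 and 9.55 by its brightest probe, and its other probe averaged -4.42. The brightest probe of Kctd14 read 10.09 and 9.84, and the others averaged 2.33 and -2.78. Of these 30 genes 13 had more than 1 probe, and for 11 of the 13 another probe was not well above background or lay at least 3 lower. Across all genes with more than 1 detected probe, 1275 of 3670 (34.7%) had probes at least 3 apart, with a median distance of 2.11. Such names are reported as uncertain, and among the listed genes detected 54 of 589 were in that position. Those of them named above include Birc5, Tfrc, Vcam1 and Hmox1, whose lowest detected probes averaged 2.74, 0.56, 0.70 and 1.01.

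**Figure D5:**
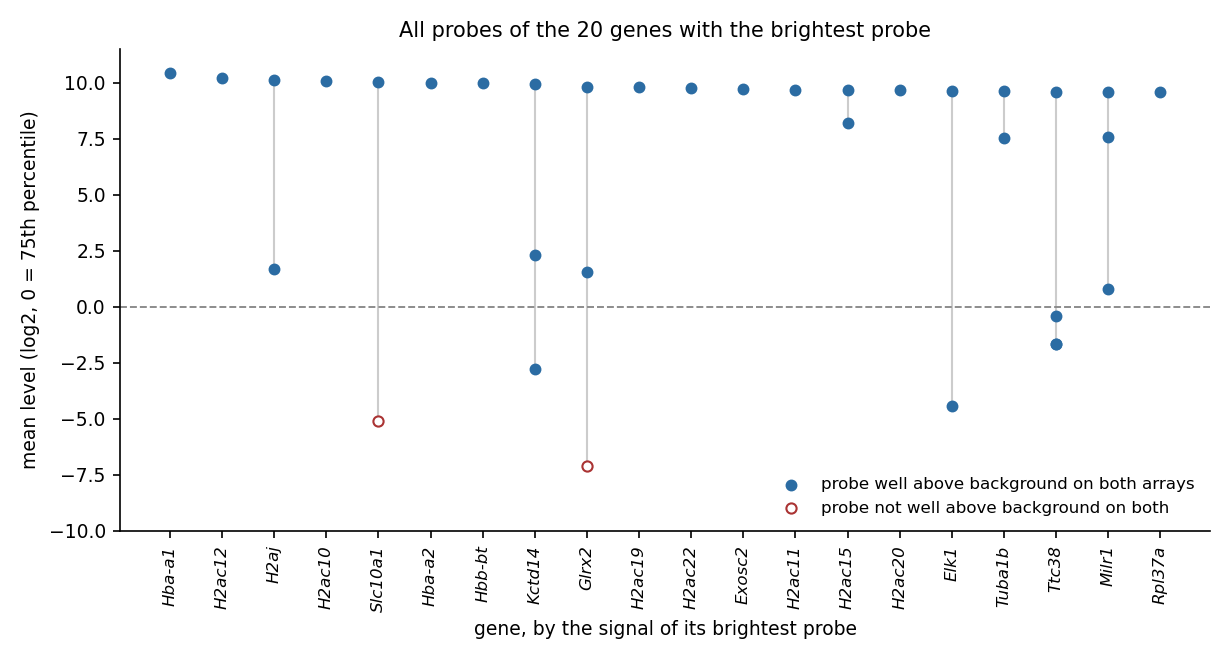
Mean level of every probe (vertical axis, log2 with 0 at the 75th percentile) for the 20 genes with the brightest probe, ordered along the horizontal axis by that probe. Filled points are probes well above background on both control arrays, open points are not, and grey lines join the probes of a gene, such as Elk1 at 9.64 and -4.42.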

How the data were processed

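Spleen RNA pools were read on Agilent single-colour (Cy3) arrays of design 028005, drawn on build mm9, with Feature Extraction 10.10.1.1, per the file headers. The deposited processed signal is an intensity on a linear scale, background-subtracted and detrended within each array by the authors' scanner software, per the file headers. Other deposited columns give the propagated error and 0 or 1 flags that call a spot well above background, saturated or outlying. A deposited table of the authors' scaled intensity values served as an alternative. Columns of other series numbered 0.

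Outlier and control spots were left out, and repeated spots of a probe were averaged. From each log2 signal the 75th percentile of the array's non-control spots was subtracted (335.0 in the male and 392.0 in the female control array). Of 55681 probes, 26762 matched a gene by RefSeq accession through a name table (assembly GRCm38.p6). A gene was represented by its brightest probe among those well above background on both control arrays. The 45 gene lists held 742 genes, 723 with a probe. The members and lists were chosen with earlier results of these data known. Named were the 30 brightest genes and, per list, up to 6 bright members, members in neither pool, members at least 2-fold apart and defining genes. Not every gene that met this rule is named. No p-value was computed. Alternatives were background correction (normexp, offset 50, on the median-pixel signals that the files give where the design assumed mean-pixel ones), normalization, centring, detection rule, probe choice and leaving out each pool. A planned comparison of promoter letters between detected and undetected genes was not made, since 79.3% of the 20284 genes had a promoter in the table. The level calculation was tested on simulated data, in which each gene's brightest probe held its true level and detection flags followed the simulated level. That run checked the code, and not whether a bright probe reads its own gene. Calculations used pandas 2.3.3 and numpy 2.4.6 under Python 3.11.15, figures used matplotlib 3.10.9, and normexp came from limma 3.58.1 under R 4.3.3.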

Additional observations from a re-analysis of the deposited data

Results flagged for a closer look

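Of 28919 probes that matched no gene by RefSeq accession, 12170 (42.1%) were well above background on both control arrays. None of them entered the levels above. Probes named only by genome coordinates made up 16194 of the unmatched, and 6078 of these (37.5%) were well above background on both arrays. Of the other 12725 unmatched probes 6092 were. In comparison, 0 of the 308 negative control spots were called on both arrays, so transcripts without a gene name here were read in both pools.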

How the results depend on the processing

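The number of genes well above background on both control arrays became 14793 when 1 of the 2 arrays sufficed and 16107 with the flag for a positive and significant signal, and it ran from 14479 to 14485 with a single pool. The number at or above the 75th percentile ran from 8294 to 8312 with a single pool, and was 8142 with the authors' value table, 8147 with quantile normalization, 8137 with normexp, 7467 with the median probe of a gene and 6737 with its lowest detected probe. With the lowest detected probe the count at or above the 75th percentile was 8 for stem and progenitor cells, 11 for megakaryocytes, 7 for T cells, 3 for fetal growth genes, 5 for pancreas acinar genes and 1 each for liver, adipose tissue and the neuron list. With the median probe it was 7 for fetal growth genes and 1 each for liver and the neuron list. Normexp gave 2 for mast cells and basophils. The significant-signal flag raised detection to 15 cytokines, 13 stomach and intestine genes, 8 adipose genes and 1 sex marker, and detection on either array gave 11 islet, 9 stomach and intestine and 4 sex marker genes. With a single pool, islet genes detected ran up to 10 and those at or above the 75th percentile up to 3, both in the male pool. Stomach and intestine genes detected ran from 6 in the male to 8 in the female pool. Of these, as of the kidney genes, 1 passed the 75th percentile in the male pool and 0 in the female pool. Sex markers detected numbered 3 in the male and 1 in the female pool, of which 2 and 1 passed the 75th percentile. Centring on the median added 3.85 to every level. Of 614 named levels, 54 crossed the 75th percentile with the lowest probe. No paired analysis was possible because each sex had 1 control pool. The number of pools, signal over background and probe choice limit these values.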
